A study of Homo sapiens with 6 samples.

Results

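The 9 genes examined here encode the 4 latent TGFβ binding proteins (LTBP1, LTBP2, LTBP3 and LTBP4), the 4 proprotein convertases FURIN, PCSK5, PCSK6 and PCSK7, and the surface protein LRRC32. They were taken by gene name from a count table of 57773 genes, and all 9 were found. RNA had been sequenced from 6 cultures of HepG2, a hepatocyte-like human liver cancer line. Recombinant human TGFβ1 was given to 3 cultures at 5 ng/mL for 3 h, and vehicle to the other 3 for the same time. Per the study's methods the cells were in medium without serum for either group, and the labels name no genetic change in the cells. In the study these libraries served to find further genes that TGFβ induces, in which a way of controlling transcription described at another gene was then looked for.

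TGFβ is made as a precursor whose propeptide must be cut from the growth factor by a proprotein convertase, and FURIN is the enzyme best known for this step. After cutting, the propeptide stays bound to the growth factor and keeps it latent. LTBP1, LTBP3 and, more weakly, LTBP4 attach the latent complex to the extracellular matrix, whereas LTBP2 belongs to the family by sequence and binds matrix fibers without holding latent TGFβ. LRRC32, also called GARP, holds latent TGFβ on the surface of regulatory T cells and platelets. In liver, stellate cells and fibroblasts are known sources of LTBPs, and the labels describe HepG2 cells alone.

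The libraries held between 60815385 and 100099136 reads on genes. Of the 57773 genes, 22747 had enough reads to be tested with edgeR's quasi-likelihood test, and 937 of them (4.12%) passed a false discovery rate (FDR) of 0.05. These were 707 higher with TGFβ (3.11% of those tested) and 230 lower (1.01%). Culture numbers paired the cultures across groups, and with the culture number as a block 2690 genes passed (11.8%), of which 1837 were higher (8.08%) and 853 lower (3.75%). The libraries had hepatocyte transcripts: 9 hepatocyte markers including ALB, AFP and HNF4A summed to between 35905 and 41829 CPM (reads of a gene scaled to a common library size) in every culture.

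Of the 9 genes, 8 had enough reads to be tested, and 2 of these 8 rose with TGFβ, FURIN and LTBP2, where 3.11% of all tested genes were called higher. No gene of the 8 was called lower by edgeR, DESeq2 or limma-voom, which called 1.01%, 2.02% and 0.989% of all genes lower. In edgeR's test on all cultures without the block, 0 were lower at an unadjusted p under 0.05, where 4.97% of all tested genes were. PCSK5 was lower at an unadjusted p of 0.0332 in edgeR's test with the block, and of 0.0162 without TGFβ culture 3. The share of all genes lower under 0.05 in those 2 fits was not counted. In the other alternative analyses the unadjusted p of PCSK5 lay between 0.0532 and 0.183, each by the test of that analysis. FURIN and LTBP2 were also the 2 whose TGFβ cultures all lay above the vehicle cultures, which held for 10.4% of all tested genes, and 0 of the 8 had all TGFβ cultures below, which held for 8.23%. The median log2 fold change of the 8 was 0.27, beside a median of -0.01 over all tested genes, and 7 of the 8 had a positive fold change, beside 49% of all genes. The values below are abundances in whole cultures, in which a change in the number of cells of a type and a change in RNA per cell cannot be told apart.

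FURIN showed the larger response, and LTBP2 was the LTBP gene that passed, so their promoter sequences are shown here. The windows run from 250 bases before to 30 bases after a RefSeq transcript start on GRCh38.p14, and are written 5′ to 3′ on the gene's strand. Capitals mark CAGAC or its reverse complement GTCTG, the short element that SMAD3 and SMAD4, the transcription factors of the TGFβ receptor, are known to contact. FURIN has 4 such windows, and the 2 that hold the element are printed, at chr15:90868338-90868617 and chr15:90872604-90872883 on the plus strand. The LTBP2 window, at chr14:74612208-74612487 on the minus strand, holds no copy and has no capitals.
FURIN window 1: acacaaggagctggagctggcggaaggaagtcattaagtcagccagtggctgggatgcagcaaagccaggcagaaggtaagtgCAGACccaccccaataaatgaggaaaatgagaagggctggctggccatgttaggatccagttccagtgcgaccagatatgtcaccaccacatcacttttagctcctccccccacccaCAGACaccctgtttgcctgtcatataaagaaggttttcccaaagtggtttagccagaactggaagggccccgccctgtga
FURIN window 4: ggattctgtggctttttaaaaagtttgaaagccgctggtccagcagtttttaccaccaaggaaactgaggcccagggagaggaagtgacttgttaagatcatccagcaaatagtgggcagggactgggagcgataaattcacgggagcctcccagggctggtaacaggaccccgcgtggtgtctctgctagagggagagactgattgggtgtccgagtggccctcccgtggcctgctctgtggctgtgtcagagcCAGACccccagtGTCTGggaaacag
LTBP2 window 1: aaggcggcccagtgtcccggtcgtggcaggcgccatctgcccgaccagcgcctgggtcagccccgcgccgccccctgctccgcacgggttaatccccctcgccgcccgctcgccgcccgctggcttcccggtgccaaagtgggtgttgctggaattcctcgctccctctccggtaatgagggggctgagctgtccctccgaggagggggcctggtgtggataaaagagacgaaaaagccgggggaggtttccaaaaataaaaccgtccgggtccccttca

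In FURIN window 1 the element began 167 and 50 bases before the start, and a TATAAA box began 28 bases before it. In FURIN window 4 the element began at bases 6 and 18, counting the start as base 1, as CAGAC and GTCTG. The other 2 FURIN windows held none and were rich in G and C, at 82.1% and 77.5%, with 4 and 3 GC boxes (GGGCGG or CCGCCC). The LTBP2 window had 3 GC boxes. CAGAC or GTCTG was also in LTBP1 windows 1, 2 and 3 and in LTBP4 window 1, and neither gene passed the test. No window of LTBP3, PCSK5, PCSK6 or PCSK7 held it. The sequence TGANTCA, the AP-1 element, was in none of the 15 windows found for 8 of the 9 genes; no window was matched for LRRC32. Among all 35116 RefSeq windows of 280 bases, 42.7% held CAGAC or GTCTG, 7.35% held TGANTCA, 44.1% a GC box and 7.11% TATAAA, searched on both strands except for TATAAA on the gene's strand. A copy of the SMAD element in a window is therefore common, and no binding was measured here.

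FURIN, which cuts many secreted and surface precursors in the trans-Golgi, was the most abundant of the 9 transcripts per length and was 2.15-fold higher with TGFβ. In vehicle cultures 1, 2 and 3 it had 225, 180 and 180 CPM after TMM scaling. In TGFβ cultures 1, 2 and 3 it had 418, 476 and 366 CPM. The lowest TGFβ culture was well above the highest vehicle culture, and each TGFβ culture exceeded its own partner. Group means were 195 ± 26.0 CPM with vehicle and 420 ± 55.0 CPM with TGFβ (SD, n = 3 each). The fitted log2 fold change was 1.10 (SE 0.12, 95% interval 0.84 to 1.37), with an FDR of 0.000692 in edgeR's quasi-likelihood test. By FDR it ranked 124 of the 22747 tested genes, and by log2 fold change 304. The log2 ratios within pairs 1, 2 and 3 were 0.89, 1.40 and 1.02, so culture 2 had the largest difference. FURIN (ENSG00000140564) lies on the plus strand of chromosome 15 at 91411822 to 91426688 in hg19, and the values rest on 45917 vehicle and 105461 TGFβ reads. It passed in all 13 alternative analyses, with log2 fold changes between 1.00 and 1.21.

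**Figure D1:**
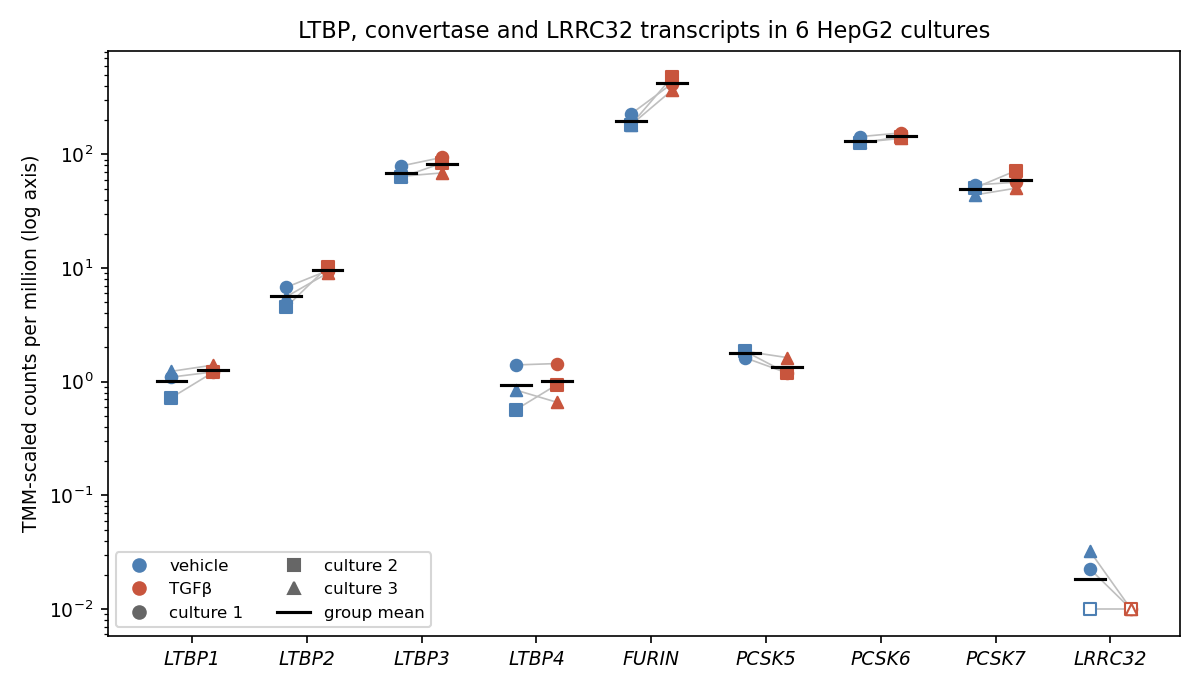
TMM-scaled CPM (log axis) of the 9 genes in the 3 vehicle (blue) and 3 TGFβ (red) HepG2 cultures, with symbols for the culture number, gray lines joining cultures of the same number and black bars for group means. Open symbols at the lower edge stand for 0 reads. FURIN and LTBP2 are the genes whose 3 TGFβ cultures all lie above the 3 vehicle cultures.

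PCSK6, also known as PACE4, is a secreted convertase that binds heparan sulfate at the cell surface, and it was the second transcript of the set per length. It had 143, 126 and 127 CPM in vehicle cultures 1 to 3 and 155, 143 and 138 CPM in TGFβ cultures 1 to 3. The groups overlapped, although the TGFβ culture was higher in 3 of 3 pairs. The log2 fold change was 0.14 (SE 0.08, 95% interval -0.04 to 0.32) and the FDR 0.539, or 0.0941 with the block. Reads of PCSK6 (ENSG00000140479, minus strand, chromosome 15 at 101840818 to 102065405) may be shared with the lncRNA RP11-299G20.2 on the opposite strand. That row covers 5125 bases of the gene and held 11543 vehicle and 13991 TGFβ reads, and whether the counting used strand is not given in the sources used here.

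PCSK7, a broadly expressed convertase, sheds the transferrin receptor from the cell surface. Its level was 53.8, 50.7 and 43.96 CPM in vehicle cultures 1 to 3 and 56.8, 72.0 and 50.4 CPM in TGFβ cultures 1 to 3. TGFβ culture 3 lay below vehicle cultures 1 and 2, so the groups overlapped. The log2 fold change was 0.27 (SE 0.13, 95% interval -0.02 to 0.56) with an FDR of 0.416, and the FDR was 0.0568 with the block. All 3 pairs were higher with TGFβ. PCSK7 (ENSG00000160613, minus strand, chromosome 11 at 117075053 to 117103241) overlaps the span of TAGLN, a smooth-muscle actin-binding protein gene on the opposite strand, by 446 bases in the coordinates of the table. In the annotation the exons of the genes share 2233 bases, so reads may be shared between them. The reads of TAGLN numbered 22703 in the vehicle group and 29617 in the TGFβ group (log2 fold change 0.31, FDR 0.526).

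PCSK5, a convertase that processes the TGFβ family ligand GDF11 in the embryo, was the gene with a negative fold change. It had 143, 153 and 114 reads in vehicle cultures 1 to 3 and 116, 96 and 119 in TGFβ cultures 1 to 3. In CPM this was 1.77 ± 0.132 against 1.34 ± 0.253 (SD, n = 3 each). TGFβ culture 3 was just above vehicle culture 1, and the TGFβ culture was the lower in all 3 pairs. The log2 fold change was -0.40 (SE 0.20, 95% interval -0.85 to 0.04) with an FDR of 0.432, or 0.163 with the block. PCSK5 (ENSG00000099139) lies on the plus strand of chromosome 9 at 78505560 to 78977255.

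Among the convertases the composition moved toward FURIN. With each gene's reads divided by its length in the table, FURIN made up 73.0%, 70.9% and 71.1% of the 4 convertases in vehicle cultures 1 to 3 and 82.4%, 84.6% and 82.0% in TGFβ cultures 1 to 3. The mean share was 71.7% ± 1.19 with vehicle and 83.0% ± 1.37 with TGFβ (SD, n = 3 each), a difference of 11.3 percentage points. PCSK6 went from 24.3% ± 1.02 to 14.4% ± 1.53, and in every TGFβ culture its share was below that of every vehicle culture. PCSK7 went from 3.81% to 2.46% and PCSK5 from 0.242% to 0.0995%, likewise without overlap. The exact two-sided permutation p was 0.1 for each of these 4 shares (0.133 adjusted over 8 shares), the smallest that 3 cultures against 3 can give. Shares within a family sum to 100%, so the lower shares of PCSK6 and PCSK7 accompany the FURIN increase and their own fold changes were above 0. As a ratio per length, FURIN exceeded PCSK6 by 2.96 ± 0.175 times with vehicle and by 5.80 ± 0.752 times with TGFβ (SD, n = 3 each). The size of the shares depends on the length used. With the length of the Ensembl canonical transcript, chosen after the data were seen, FURIN made up 51.6% with vehicle and 67.0% with TGFβ, PCSK6 34.9% and 23.3%, and PCSK7 13.3% and 9.62%. The ratio of FURIN to PCSK6 was then 1.48 with vehicle and 2.91 with TGFβ.

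**Figure D2:**
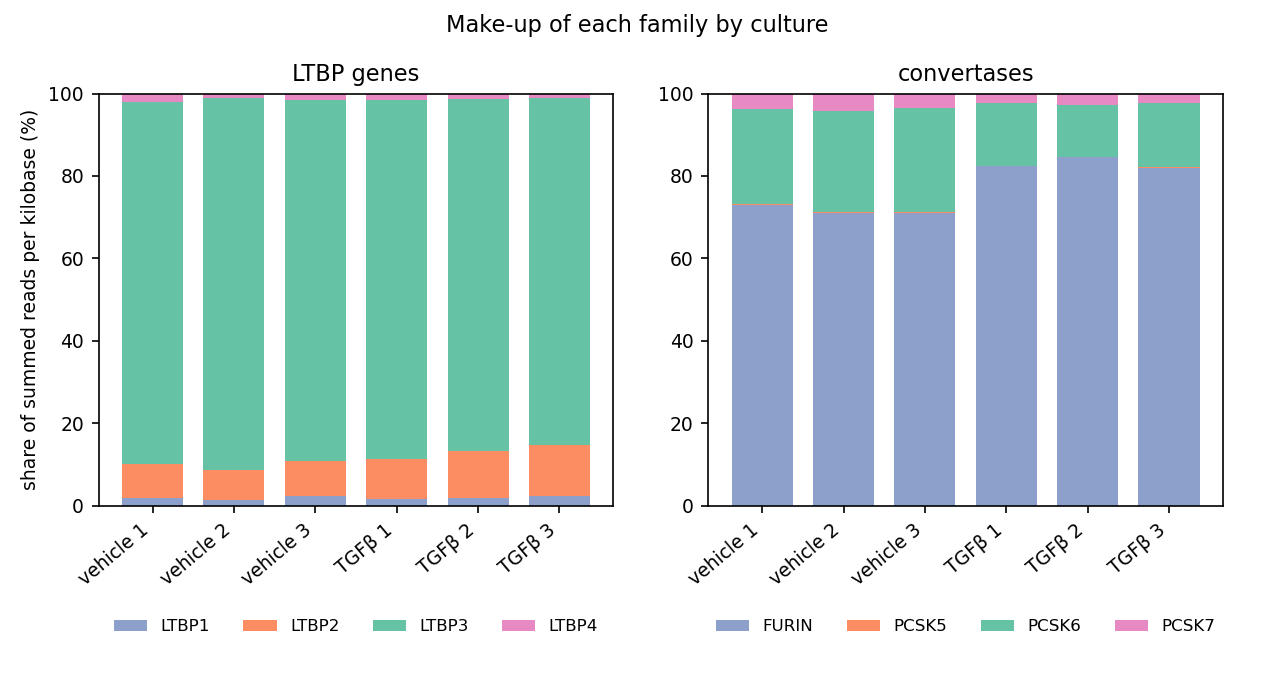
Share (%) of each gene in the summed reads per kilobase of the 4 LTBP genes (left) and the 4 convertases (right), with a stacked bar for each of the 6 HepG2 cultures. The FURIN segment ends between 70.9% and 73.0% in vehicle cultures and between 82.0% and 84.6% in TGFβ cultures, and LTBP3 fills most of each LTBP bar.

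LTBP2, a matrix protein that binds fibrillin microfibrils, was the LTBP gene that rose, by 1.70-fold. Vehicle cultures 1, 2 and 3 had 597, 376 and 344 reads, or 6.76, 4.54 and 5.59 CPM. TGFβ cultures 1, 2 and 3 had 919, 823 and 657 reads, or 9.48, 10.2 and 9.01 CPM. The lowest TGFβ culture was above the highest vehicle culture. Means were 5.63 ± 1.11 CPM and 9.57 ± 0.612 CPM (SD, n = 3 each), and the log2 fold change was 0.77 (SE 0.15, 95% interval 0.42 to 1.11) with an FDR of 0.0212. With the block the FDR was 0.00225. The call depended on single cultures: the FDR was 0.0800 without vehicle culture 2, 0.101 without vehicle culture 3, 0.0526 without TGFβ culture 1 and 0.0942 without TGFβ culture 2. Over the 6 fits without a culture its log2 fold change lay between 0.63 and 0.91. The log2 ratios within pairs were 0.49, 1.17 and 0.69, and as for FURIN pair 2 differed most.

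LTBP2 (ENSG00000119681) lies on the minus strand of chromosome 14 at 74964873 to 75079306 in hg19. The lncRNA CTD-2207P18.1 on the opposite strand lies within its span, with 46 vehicle and 61 TGFβ reads, few beside the 1317 and 2399 reads of LTBP2. Of the 9 other tested genes within 100 kb of LTBP2, the lncRNA CTD-2207P18.2 (ENSG00000258976) passed the test. It lies on the same strand, 2090 bases upstream of the LTBP2 span, at 75081396 to 75083350, and was looked at after its values were seen. It had 7, 8 and 8 reads in vehicle cultures and 36, 51 and 35 in TGFβ cultures (log2 fold change 2.29, SE 0.36, FDR 0.00563). It passed the filter on low counts only through the TGFβ group, where it is high, and was not tested with a minimum of 10 counts per library. NPC2 and ISCA2, the protein-coding neighbors on the other side, had log2 fold changes of 0.03 and 0.09. AREL1, a protein-coding gene farther upstream, had one of 0.17 (FDR 0.318, or 0.0725 with the block). Its TGFβ cultures all lay above its vehicle cultures, which held for 10.4% of all tested genes. Near FURIN, 10 genes within 100 kb were tested. The nearest, FES, which starts 237 bases from the end of FURIN, had a log2 fold change of 0.34 (SE 0.08). Its FDR was 0.0547, so it did not pass. It was under 0.05 in DESeq2's Wald test (0.0112), with a minimum of 10 counts per library (0.0443) and with the block (0.00660). It was above 0.05 with DESeq2 size factors (0.0551), in limma-voom (0.0645), with total-count scaling (0.0832) and without the filter (0.117). In the 6 fits without a culture it lay between 0.0602 and 0.230. The other 9 had an FDR of at least 0.635 in edgeR's test without the block. With the block the lowest of them was PRC1-AS1, at 0.136.

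LTBP3, which binds latent TGFβ1 and takes part in its secretion and anchoring, was the main LTBP transcript of HepG2 cells. Its level was 79.0, 62.8 and 64.1 CPM in vehicle cultures 1 to 3 and 94.1, 83.8 and 68.7 CPM in TGFβ cultures 1 to 3. TGFβ culture 3 was lower than vehicle culture 1, but each TGFβ culture exceeded its partner. The log2 fold change was 0.26 (SE 0.13, 95% interval -0.02 to 0.54) with an FDR of 0.427. With the block it was 0.26 (SE 0.06) with an FDR of 0.0198, so LTBP3 was called when the pairing was used, which raised the count to 3 of 8 where 11.8% of all genes passed. LTBP3 (ENSG00000168056) lies on the minus strand of chromosome 11 at 65306276 to 65326401, and its values rest on 16123 vehicle and 20862 TGFβ reads.

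LTBP1, the best-studied carrier of latent TGFβ1, was low. It had 97, 60 and 76 reads in vehicle cultures 1 to 3 and 118, 97 and 102 in TGFβ cultures 1 to 3, or 1.02 ± 0.264 and 1.27 ± 0.109 CPM (SD, n = 3 each). The groups overlapped, with vehicle culture 3 above TGFβ cultures 1 and 2. The log2 fold change was 0.33 (SE 0.24, 95% interval -0.20 to 0.85, FDR 0.666), an interval that holds both no change and a change as large as that of LTBP2. LTBP1 (ENSG00000049323) lies on the plus strand of chromosome 2 at 33172039 to 33624576. LTBP4, needed with fibulins for elastic fibers, had 124, 47 and 52 reads in vehicle cultures 1 to 3 and 140, 76 and 48 in TGFβ cultures 1 to 3. Culture 1 was the highest of either group, and the log2 fold change of 0.12 (SE 0.37, 95% interval -0.71 to 0.95, FDR 0.938) was negative without vehicle culture 2 (-0.15) or TGFβ culture 1 (-0.24). LTBP4 (ENSG00000090006) lies on the plus strand of chromosome 19 at 41098789 to 41135725. The intervals of LTBP1 and LTBP4 do not separate no change from a change of the size seen for LTBP2.

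Within the LTBP genes, reads per length placed LTBP3 at 88.7% ± 1.42 with vehicle and 85.6% ± 1.35 with TGFβ (SD, n = 3 each). LTBP2 took 8.33%, 7.21% and 8.45% in vehicle cultures 1 to 3 and 9.70%, 11.5% and 12.2% in TGFβ cultures 1 to 3. Both shares were without overlap between the groups, and the exact permutation p was 0.1 for each (0.133 adjusted over 8 shares). The ratio of LTBP3 to LTBP2 per length was 11.1 ± 1.19 with vehicle and 7.75 ± 1.08 with TGFβ (SD, n = 3 each). These sizes depend on the length used. With canonical transcript lengths LTBP3 made up 93.4% with vehicle and 91.7% with TGFβ and LTBP2 4.36% and 6.18%, again without overlap, and the ratio was 21.6 ± 2.30 and 15.0 ± 2.10. By the table's lengths LTBP1 stayed between 1.46% and 2.41% of the family and LTBP4 between 1.03% and 1.99% over the 6 cultures, with exact permutation p of 0.7 and 0.6.

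LRRC32 was at the limit of detection. It had 2, 0 and 2 reads in vehicle cultures and 0 in each of the 3 TGFβ cultures, too few to be tested. A count of 0 in the 254392556 TGFβ reads allows up to 3 reads, or 0.0120 CPM, by counting error alone, and the vehicle group with 4 reads was near its own floor of 0.0129 CPM, so no fold is given. LRRC32 (ENSG00000137507) lies on the minus strand of chromosome 11 at 76368568 to 76381791. Of markers of the cells known for LRRC32, the T cell gene CD3E and the platelet genes PF4, PPBP and GP9 had no read in any culture. FOXP3 had 79 reads in the vehicle group and 83 in the TGFβ group. The platelet gene ITGA2B had 69 and 37 reads (log2 fold change -1.05, FDR 0.263).

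Per kilobase of the length in the table, the order of mean levels with vehicle was FURIN (41.9 CPM per kilobase), PCSK6 (14.1), LTBP3 (6.66), PCSK7 (2.22) and LTBP2 (0.605). Then came PCSK5 (0.140), LTBP1 (0.139) and LTBP4 (0.116), and LRRC32 was last. The ranges of neighbors among the 5 leading genes did not overlap in either group, whereas PCSK5, LTBP1 and LTBP4 did not differ beyond their spread with vehicle. With TGFβ the leading 5 had the same order, at 90.1, 15.6, 7.98, 2.68 and 1.03, and the low genes followed as LTBP1 (0.174), LTBP4 (0.125) and PCSK5 (0.106), with the ranges of neighbors overlapping. The authors' own RPKM values placed the leading 5 in this order in each of the 6 libraries, and so did the canonical transcript lengths. By the latter, LTBP4 ranked above PCSK5 and LTBP1 in both groups.

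**Figure D3:**
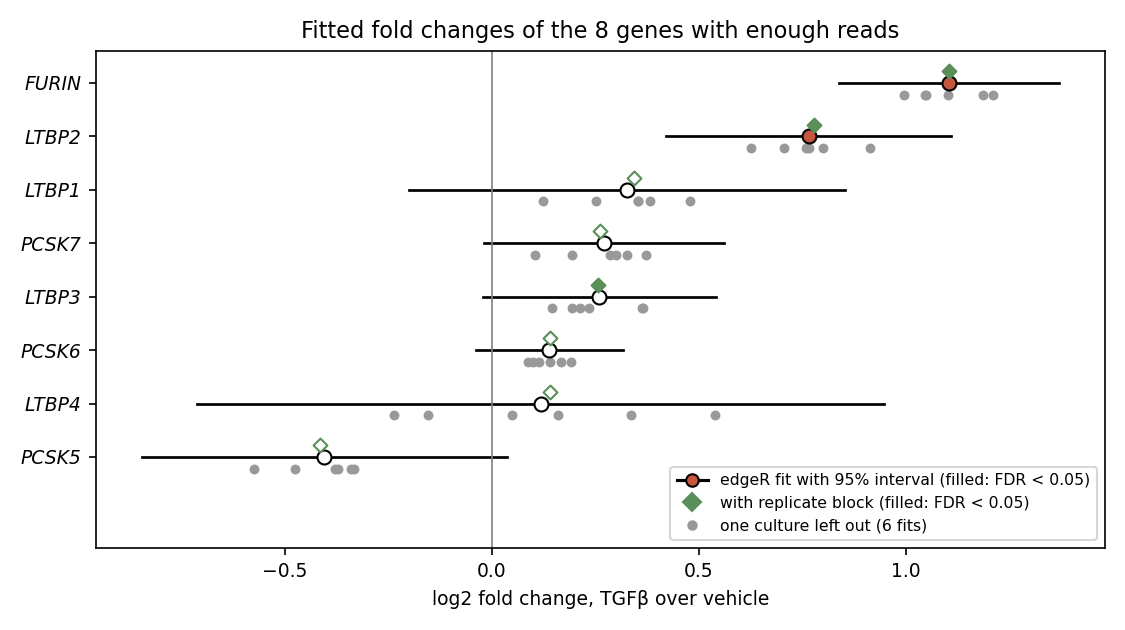
Fitted log2 fold change (TGFβ over vehicle) of the 8 tested genes, with 95% intervals (circles and lines, filled red at an FDR under 0.05), the fit with the culture number as a block (green diamonds, filled under 0.05) and 6 fits that each leave out a culture (gray dots). The intervals of FURIN (0.84 to 1.37) and LTBP2 (0.42 to 1.11) exclude 0, and the other 6 include it.

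FURIN's profile over the 6 cultures was most like those of GNA13, GPR56 and RTKN, among 10410 other tested genes with at least 10 CPM. Pearson's r of log2 CPM was 0.999, 0.997 and 0.997, as a description over 6 libraries that share their treatment groups. GNA13, a G protein subunit gene, had a log2 fold change of 0.41, GPR56, an adhesion receptor gene, 1.52 and RTKN 0.43, against 1.10 for FURIN. The 4 genes thus rose by unequal amounts.

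The list of storage and activation genes holds the partners of the latent complex: TGFβ ligands, integrins, matrix proteins and proteases, with 23 genes reported here of which 20 were tested. Of these, 4 rose in edgeR's test, where 3.11% of all tested genes were called higher, and the median log2 fold change was 0.40. The counts and medians of this list and the next are over the genes reported here and not over the whole lists. At an unadjusted p under 0.05, 10 of the 20 were higher and 0 lower, beside 8.69% and 4.97% of all tested genes. Both the 10 and the median of 0.40 include TGFB2 and MMP9, with log2 fold changes of 1.23 and 1.55. These genes would not have passed the filter on low counts without the TGFβ group, where they are high. The median is therefore raised by the filter and is given as a description only. TGFB1, the ligand whose precursor FURIN cuts, went from 91.0 ± 2.53 to 143 ± 17.8 CPM (SD, n = 3 each; log2 fold change 0.65, SE 0.09, FDR 0.00336). THBS1, whose protein can release latent TGFβ, went from 504 ± 26.7 to 747 ± 60.6 CPM (0.57, SE 0.08, FDR 0.00390). TGM2, the transglutaminase that crosslinks LTBP1 to matrix, and ADAMTSL2, a microfibril protein that binds LTBP1, also rose, with log2 fold changes of 0.69 and 0.67. Those calls were lost in some fits without a culture: the FDR of TGM2 was 0.0930 without vehicle culture 2, 0.0779 without vehicle culture 3 and 0.0640 without TGFβ culture 2. For ADAMTSL2 it was 0.0905 and 0.143 without vehicle cultures 2 and 3, and 0.104 and 0.0969 without TGFβ cultures 1 and 2.

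With the block 9 of the 20 passed, all higher, where 8.08% of all tested genes were called higher, adding ITGAV, EFEMP2, BMP1, PLAUR and MMP9. MMP9, with 13, 4 and 7 vehicle reads and 25, 30 and 21 TGFβ reads, passed the filter on low counts only through the group where it is high. ITGAV, the αv integrin chain of the receptors that pull latent TGFβ open, had 307 ± 47.3 CPM with vehicle and 476 ± 121 CPM with TGFβ, and an FDR of 0.0899 without and 3.97e-05 with the block. The β chains that pair with it did not pass: ITGB1 had a log2 fold change of 0.07, ITGB5 of 0.15, ITGB3 of -0.17 and ITGB8 of -0.25. ITGB6 was below the filter with 4 and 9 reads. FBN1, the fibrillin onto which LTBPs assemble, had 1097 and 1115 reads and a log2 fold change of -0.09, and FN1, fibronectin, 0.06. TGFB2 had 23 vehicle and 60 TGFβ reads (1.23, FDR 0.200) and TGFB3 263 and 238 (-0.29, FDR 0.726). NRROS, the LRRC32 relative of myeloid cells, had 1 read in all.

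Of the known convertase substrates 22 are reported here and 19 were tested, with a median log2 fold change of 0.22. Of the 19, 5 rose in edgeR's test, again beside 3.11% of all tested genes called higher. At an unadjusted p under 0.05, 9 were higher and 2 lower beside 8.69% and 4.97% of all tested genes. Both the 9 and the median of 0.22 include TGFB2, which would not have passed the filter on low counts without the TGFβ group. MET was called lower by DESeq2's Wald test, as were 2.02% of all genes, and MET and BMP4 without the filter (FDR 0.0244 and 0.0475). Of these genes, TGFB1, TGFB2, TGFB3, MMP14 and ITGAV are also on the preceding list. PDGFA and PDGFB, growth factor chains cut by FURIN, went from 2.85 ± 0.234 to 8.76 ± 0.320 CPM and from 3.56 ± 0.614 to 15.5 ± 4.53 CPM (SD, n = 3 each). Their log2 fold changes were 1.62 (SE 0.13, FDR 0.000109) and 2.12 (SE 0.22, FDR 0.000535). HAMP, which encodes the iron hormone hepcidin, had a log2 fold change of 1.63 (FDR 0.0130) and NOTCH1 of 1.05 (FDR 0.0275). NOTCH1 lost its call in fits without vehicle culture 1, 2 or 3 or TGFβ culture 1 (FDR up to 0.131), and HAMP in fits without the same cultures (FDR up to 0.101) and without the filter (FDR 0.256). With the block 10 passed, 7 higher and 3 lower, beside 8.08% and 3.75% of all tested genes, and the added genes were IGF1R and ITGAV (higher) and MET, BMP4 and LIPG (lower). The surface substrates INSR, ADAM10 and ADAM17 had log2 fold changes of 0.02, 0.06 and 0.07 and did not pass.

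**Figure D4:**
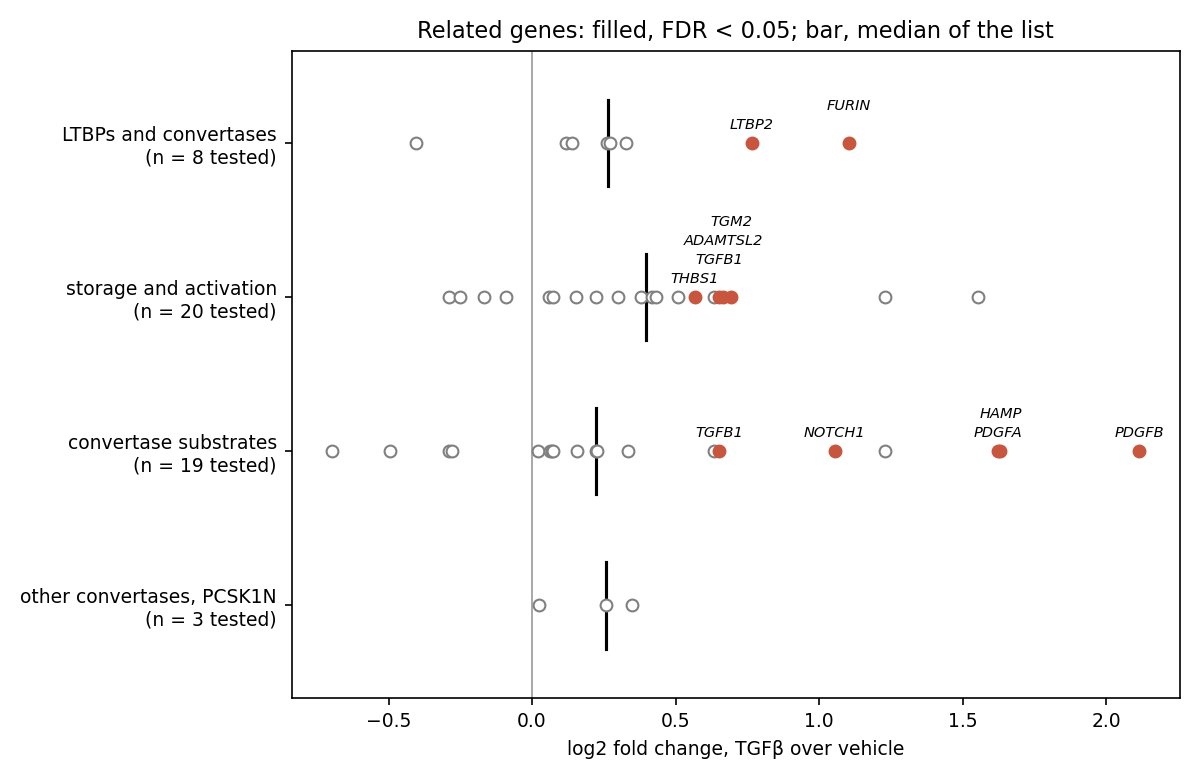
Log2 fold change (TGFβ over vehicle) of each tested gene in 4 lists, with filled red circles at an FDR under 0.05 and black bars at the list medians. FURIN (1.10) and LTBP2 (0.77) lie right of the other LTBP and convertase genes, and in the lists of related genes the points range from -0.70 for LIPG, which did not pass, to 2.12 for PDGFB.

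Of 4 other convertase genes reported here and the inhibitor gene PCSK1N, MBTPS1, PCSK4 and PCSK1N were tested, and 0 passed in edgeR's test without the block, in DESeq2 or in limma-voom, with 1 (PCSK1N) at an unadjusted p under 0.05. The log2 fold changes were 0.02 for MBTPS1, the site-1 protease of SREBP processing, 0.26 for PCSK4 and 0.35 for PCSK1N. PCSK1N, which encodes an inhibitor of the neuroendocrine enzyme PCSK1, had an FDR of 0.201, of 0.00715 with the block and of 0.0274 without TGFβ culture 3. PCSK1 and PCSK2, the convertases of hormone-secreting cells, had between 3 and 18 reads per group and were not tested.

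Markers of other cells were set beside these results because stellate cells and fibroblasts make LTBPs. The 5 fibroblast and stellate markers summed to between 13.6 and 14.9 CPM with vehicle and between 23.3 and 34.6 CPM with TGFβ, without overlap. That sum came from COL1A1 (7.54 and 11.2 CPM) and PDGFRB (6.77 and 15.8 CPM). Neither passed in edgeR's test without the block, at an FDR of 0.193 and 0.0582, and their fit with the block is not given here. Their unadjusted p in that test was 0.0163 and 0.00262, where 8.69% of all tested genes were higher under 0.05. In both, every TGFβ culture lay above every vehicle culture, which held for 10.4% of all tested genes. The other 3 of the list, COL3A1, DCN and LUM, had 6, 16 and 2 reads in the vehicle group and 22, 13 and 0 in the TGFβ group. The part of the summed markers in the LTBP2 result was not tested. The 3 endothelial markers found in the table summed to at most 0.272 CPM in any culture, and KDR had no read. The 4 leukocyte markers summed to between 1.94 and 3.73 CPM over the 6 cultures, made up of CD14, FOXP3 (between 0.309 and 0.357 CPM) and 1 read of PTPRC, and the 4 platelet markers to at most 0.390 CPM, all of it ITGA2B.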

How the data were processed

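RNA from HepG2 cultures treated with vehicle or TGFβ (n = 3 each) was sequenced by the authors after TruSeq preparation. The authors deposited raw counts per gene, which are not normalized, and RPKM values. The submitters' processing notes name bcl2fastq, TopHat2 2.0.6 and HTSeq, with hg19, and the methods name MAPRseq. The annotation release and strand setting were not given in the sources used here. The deposited RPKM values follow from the counts, the gene length in the table and library totals between 1.19 and 1.28 times the reads on genes; they were used only for the order of the genes. All per-sample columns were used.

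Counts were tested with edgeR 4.0.16 in R 4.3.3, with the robust quasi-likelihood F test after filterByExpr and TMM scaling, and Benjamini-Hochberg adjustment over 22747 genes. No block was used, since the study names edgeR and none. CPM and values per kilobase use TMM-scaled library sizes. Between replicates of a group, chi-square per gene was 21.6 to 47.1, far above sampling noise, and each counted as a sample. The methods call them biological replicates. Deviations from the group means correlated at 0.366, 0.227 and 0.316 for cultures with the same number and at most at 0.0101 for others, and on that basis the fit with the culture number as a block is printed beside results it changes. Pairs 1 and 2 each shared a sequencing lane, and cultures 3 were on lanes 4 and 5.

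Shares used an exact permutation test, whose smallest p is 0.1. Floors cover counting error only. Promoter windows and names are from RefSeq (GRCh38.p14), and strands and overlaps from a GENCODE annotation on GRCh37; no coordinates were converted. ITGB3 has more than 1 row, and the identifier paired with it in the reference names was used. The steps were tested on simulated data. The genes, lists and rules were chosen with earlier results of these data known. Genes named are the 9 genes, the related genes that passed or lead their list, overlapping rows, near neighbors and the 3 genes most like FURIN; other genes were named after their values were seen. Alternatives were the replicate block, leaving out each culture, limma-voom (limma 3.58.1), DESeq2 1.42.0, its size factors, scaling by total counts, a minimum of 10 counts per library, testing without a filter and, for shares, other lengths. Some listed genes are not reported here, for a reason other than their values, and the counts and medians of the lists leave them out. The methods' other assays were not analysed here.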

Additional observations from a re-analysis of the deposited data

How the results depend on the processing

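Across 13 alternatives FURIN kept its call, and LTBP2 kept it in 9, being lost in 4 of the 6 fits that leave out a culture. Without a culture, genes called ranged from 485 to 998, LTBP and convertase genes from 1 to 2, storage and activation genes from 2 to 5, convertase substrates from 3 to 7 and the list of other convertases and PCSK1N from 0 to 1. DESeq2's Wald test called 1415 genes. With the replicate block, that is the pairing by culture number, 2690 genes were called, among them all 937 called without it, along with 3 LTBP and convertase genes, 9 storage and activation genes, 10 convertase substrates and the inhibitor gene PCSK1N. The block changed no other call among the LTBP and convertase genes than that of LTBP3. Directions reversed for genes that never passed. Without a culture, the log2 fold change of LTBP4 ranged from -0.24 to 0.54 (negative without vehicle culture 2 or TGFβ culture 1) and that of MBTPS1 from -0.012 to 0.038 (negative without TGFβ culture 2), and MBTPS1 was at -0.019 with total-count scaling. The difference in the share of LTBP1 ranged from -0.196 to 0.317 percentage points, negative without vehicle culture 1 or 2 or TGFβ culture 3, and that of LTBP4 from -0.411 to 0.0649, positive without vehicle culture 1. Without length scaling, the differences in share were 15.5 points for FURIN, -11.6 for PCSK6, -3.60 for PCSK7 and -0.255 for PCSK5; the direction was kept. The leave-out fits use fewer cultures, and the cause of these changes was not tested. LTBP1, LTBP4, PCSK5 and LRRC32 had at most 153 reads per culture; for LTBP4 the SE was 0.37, above the 0.24 of LTBP1 at similar reads.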
